A study of Saccharomyces cerevisiae with 9 samples.

Results

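The genes described here are those of the proteasome subunits in the yeast Saccharomyces cerevisiae, with RPN4, the transcription factor that drives them, and RPN14, a chaperone that helps to assemble the proteasome and shares the subunits' naming. They were found by name among the genes on the array. A gene was kept if its symbol was RPN, RPT, PRE or PUP followed by a number, or if it was SCL1, and 34 of 5449 S. cerevisiae genes met this rule. They comprise 14 genes of the core particle, 10 of the base, 8 of the lid, RPN4 and RPN14, so 32 encode structural subunits. The arrays covered the strains KF7, NBRC2018 and NBRC1958 in YPD, a rich medium of yeast extract, peptone and glucose, with 0, 20 or 60 g/L of succinic acid added. All cultures were grown at 35 °C and 200 rpm for 6 hours, and each combination of strain and dose was measured on 1 array, 9 arrays in all. The purpose stated by the submitters was to describe the response of yeast to succinic acid stress.

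The proteasome is the protease that breaks down proteins tagged with ubiquitin. Its core particle is a barrel of alpha and beta rings in which 3 kinds of beta subunit cut the substrate. A regulatory particle caps the barrel. The base of this cap holds a ring of ATPases that unfold substrates and thread them into the core, together with ubiquitin receptors and scaffolds. The lid carries RPN11, the enzyme that removes ubiquitin chains. In yeast, Rpn4 binds a short element in the promoters of most subunit genes and activates them. Rpn4 is itself degraded by the proteasome within minutes, so the pair is known as a feedback loop.

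With 1 array for each combination, doses were compared across the 3 strains and strains across the 3 doses. The labels do not say that the arrays came from separate cultures. The p-values therefore refer only to the spread between these arrays that the strain and dose terms leave. In the additive fit that spread mixes array noise with any difference between strains in their response to dose. Values are the authors' normalized signals in arbitrary units, with medians over the S. cerevisiae genes of 294 to 311 on the 9 arrays. They describe a gene's level relative to the other genes on the same array, not an amount per cell. Less RNA per cell cannot be told apart from an unchanged amount diluted by other RNA. Each of the 34 genes was read by 1 probe set, and all 34 passed the filter that left out the lowest 20% of genes. Their lowest signal, 110.3 for RPN14 in NBRC1958 at 60 g/L, lay above the 95th percentile of the probe sets for another organism, which was 14.7 to 15.9. Signals of different probe sets are not set against each other. The 34 genes lie on 13 of the 16 nuclear chromosomes in RefSeq's gene table. A gene was called changed at an adjusted p under 0.05, from limma with strain and dose as additive terms and Benjamini-Hochberg adjustment over 4359 genes.

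RPN4 rose at 60 g/L in each strain while the subunit genes, as far as they changed, fell. At 60 against 0 g/L 11 of the 34 genes passed, against 22.8% of all genes tested. RPN4 was the 1 that rose, and 9 structural subunit genes and RPN14 fell. Among the 9 were 4 of the 6 base ATPases, 4 of the 14 core subunits and 1 of the 8 lid subunits. Across all genes tested, 8.67% were called higher and 14.2% lower. The median log2 difference of the 32 subunit genes was -0.27, against -0.05 for all genes tested. Below 0 were 28 of the 32, against 2474 of the 4359 genes tested. Of the 32, 25 were lower in all 3 strains, against 33.6% of all genes tested, and none was higher in all 3. For 17 of the 32 the highest 60 g/L signal was below the lowest 0 g/L signal, against 15.8% of all genes tested. None of the 34 had its 60 g/L signals wholly above its 0 g/L signals, against 7.36% of all genes tested.

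RPN4 (YDL020C) had signals of 807, 780.5 and 1187 in KF7 at 0, 20 and 60 g/L. In NBRC2018 the signals at the same doses were 655.6, 704.6 and 1032, and in NBRC1958 they were 1189, 995.2 and 2135. Each strain had its highest value at 60 g/L, yet the groups overlapped, because NBRC1958 without acid stood level with KF7 at 60 g/L. RPN4 averaged 1451 ± 597 at 60 g/L and 884 ± 275 at 0 g/L (SD, n = 3 strains). The log2 difference was 0.67 with a standard error of 0.12, a 1.60-fold rise (limma adjusted p = 0.0085). By strain it was 0.55 in KF7, 0.64 in NBRC2018 and 0.84 in NBRC1958. With the 0 g/L array of NBRC1958 left out the difference was 0.68 and the adjusted p was 0.053.

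**Figure D1:**
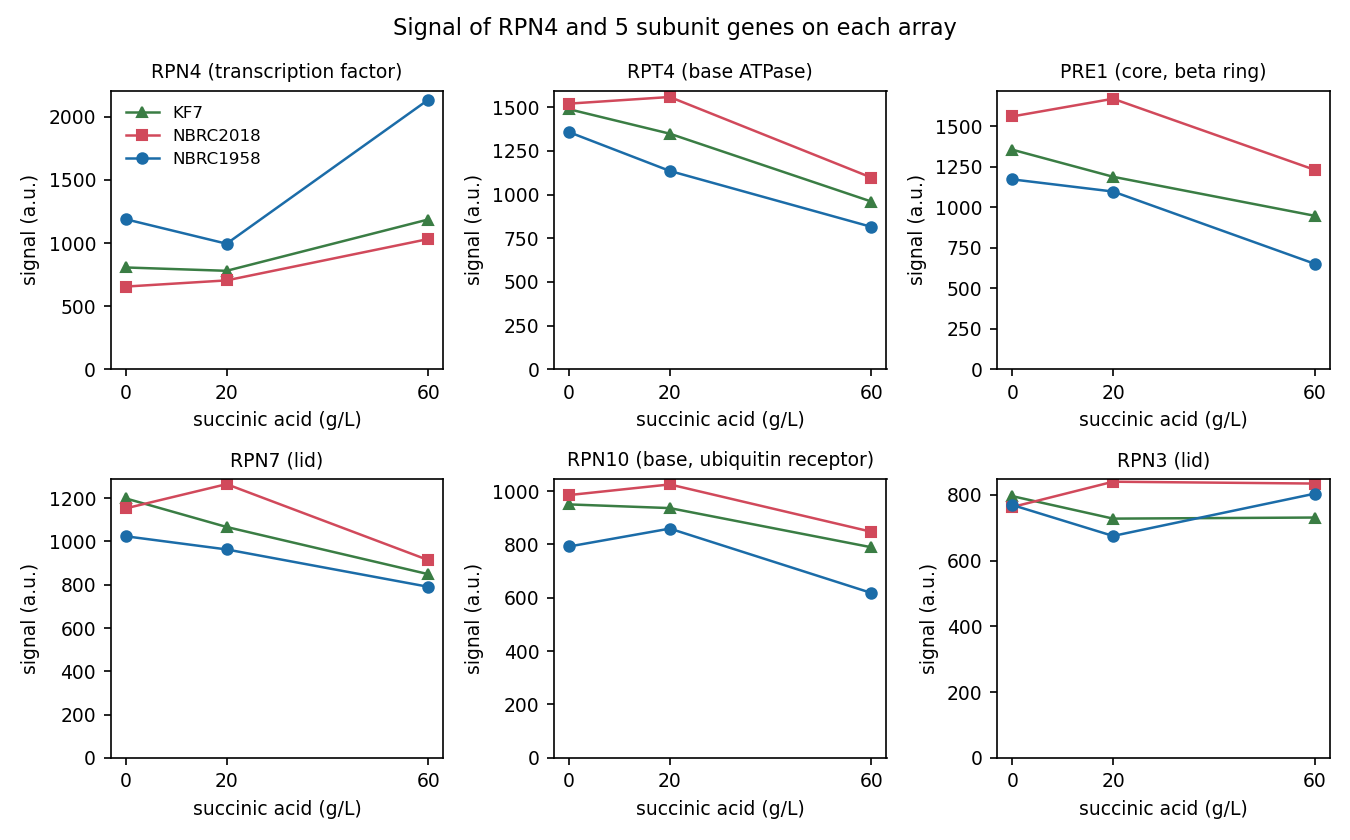
Signal in arbitrary units (vertical axes, starting at 0) against succinic acid in g/L for RPN4 and 5 subunit genes, 1 array per point and 1 line per strain. RPN4 is highest at 60 g/L in each strain (1187, 1032 and 2135), RPT4, PRE1, RPN7 and RPN10 are lowest there, and RPN3 shows no shared direction.

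The base ATPases form the ring that pulls substrates into the core, and all 6 of their genes were lower at 60 g/L in each strain with no overlap between the groups. RPT4, RPT5, RPT2 and RPT3 passed the test, and RPT1 (log2 difference -0.31, adjusted p = 0.060) and RPT6 (-0.27, 0.069) did not. RPT4 (YOR259C) had 1488, 1348 and 959.8 in KF7 at 0, 20 and 60 g/L, 1520, 1558 and 1097 in NBRC2018, and 1357, 1135 and 815 in NBRC1958. Its 60 g/L signals all lay below the lowest value at the other doses, which was 1135. RPT4 averaged 957 ± 141 at 60 g/L and 1455 ± 86.3 at 0 g/L (SD, n = 3), a log2 difference of -0.60 with a standard error of 0.092 (limma adjusted p = 0.0053). This was the largest fall among the 34 genes, to 0.658 of the 0 g/L level, and it passed the test when any 1 of the 9 arrays was left out.

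RPT2 encodes the ATPase whose tail is known to open the gate of the core. It had 862.7, 773.1 and 657 in KF7 at 0, 20 and 60 g/L, 930.8, 955.3 and 726.2 in NBRC2018, and 772.1, 728.5 and 551.2 in NBRC1958. The 60 g/L signals were again the lowest of their strain and did not reach any of the 0 g/L signals. The log2 difference was -0.40 (adjusted p = 0.016), and that of RPT5 was -0.45 (0.019) and that of RPT3 -0.35 (0.026). With 1 array left out, RPT2 passed in 7 of 9 fits, RPT5 in 5 and RPT3 in 3. RPT6, the ATPase with the largest p of the ring, had 1403, 1296 and 1212 in KF7 at the same doses. Its signals were 1421, 1500 and 1147 in NBRC2018 and 1242, 1095 and 1005 in NBRC1958, so it followed the same course on a smaller scale.

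The base also holds 4 subunits that are not ATPases, and none of these passed the test at 60 against 0 g/L. RPN10 and RPN13, the ubiquitin receptors, had the larger differences, -0.28 (adjusted p = 0.055) and -0.29 (0.060). RPN10 had 950.1, 936.3 and 789.4 in KF7 at 0, 20 and 60 g/L, 985.1, 1025 and 847.5 in NBRC2018, and 792.3, 859.4 and 618.1 in NBRC1958. RPN13 had 1479, 1432 and 1263 in KF7, 1518, 1410 and 1350 in NBRC2018, and 1437, 1315 and 1028 in NBRC1958. Both were lowest at 60 g/L in every strain, and the groups overlapped for RPN10 but not for RPN13. The large scaffold subunits had smaller differences, -0.10 for RPN2 and 0.06 for RPN1. RPN1, which docks ubiquitin shuttles, had 1483, 1424 and 1405 in KF7, 1493, 1710 and 1773 in NBRC2018, and 1657, 1523 and 1668 in NBRC1958. It was higher at 60 than at 0 g/L in NBRC2018 and NBRC1958 and lower in KF7, and its sign turned when the 0 g/L array of NBRC2018 was left out (-0.035).

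In the core particle the fitted difference was below 0 for all 14 genes, with a median of -0.27, and 13 of the 14 were lower in all 3 strains. The 14 split evenly, 7 alpha and 7 beta subunits, and 2 of each ring passed the test. The alpha rings form the gate through which substrates enter. SCL1 had 1706, 1607 and 1364 in KF7 at 0, 20 and 60 g/L, 1710, 1758 and 1278 in NBRC2018, and 1439, 1294 and 1138 in NBRC1958. PRE10 had 2185, 1929 and 1723 in KF7, 2168, 2254 and 1780 in NBRC2018, and 1585, 1601 and 1206 in NBRC1958. For SCL1 every 60 g/L signal was below every 0 g/L signal, while for PRE10 the groups overlapped through the low 0 g/L value of NBRC1958. The log2 difference was -0.36 for SCL1 (limma adjusted p = 0.027) and -0.34 for PRE10 (0.033). With 1 array left out, SCL1 passed in 4 of 9 fits and PRE10 in 2 of 9, and PRE10 did not pass with quantile normalization.

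Of the other alpha subunit genes, PRE6 (-0.36), PUP2 (-0.27), PRE8 (-0.23) and PRE5 (-0.18) did not pass. PRE6 had 2556, 2585 and 2250 in KF7 at 0, 20 and 60 g/L, 2573, 2757 and 2248 in NBRC2018, and 3077, 3019 and 1901 in NBRC1958. NBRC1958 had both the highest and the lowest of these 9 signals, and its difference of -0.69 stood against -0.18 in KF7 and -0.19 in NBRC2018. PRE9, the alpha subunit that yeast can live without, had the smallest difference of the ring (-0.07, adjusted p = 0.58). Its signals were 1016, 1039 and 993 in KF7, 1068, 1116 and 1059 in NBRC2018, and 811.5, 837 and 726.7 in NBRC1958, so the gap between NBRC1958 and the other strains exceeded that between doses.

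The beta rings hold the active sites. PRE1 (YER012W) had 1354, 1187 and 946.6 in KF7 at 0, 20 and 60 g/L, 1559, 1668 and 1230 in NBRC2018, and 1171, 1096 and 650.7 in NBRC1958. PUP1, which encodes the subunit with trypsin-like activity, had 1503, 1371 and 1108 in KF7, 1528, 1561 and 1159 in NBRC2018, and 1170, 1137 and 901.5 in NBRC1958. Both were lowest at 60 g/L in each strain, and only for PRE1 did the groups overlap, since NBRC2018 at 60 g/L was above NBRC1958 at 0 g/L. PRE1 averaged 942 ± 290 at 60 g/L and 1361 ± 194 at 0 g/L (SD, n = 3). The log2 difference was -0.56 for PRE1 (standard error 0.12, adjusted p = 0.014) and -0.40 for PUP1 (0.083, 0.014).

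The remaining beta subunit genes did not pass the test. Among them are the genes of the other active sites, PRE2 (-0.36, adjusted p = 0.058), with chymotrypsin-like activity, and PRE3 (-0.24, 0.093), with caspase-like activity. PRE2 had 2748, 2679 and 2092 in KF7 at 0, 20 and 60 g/L, 2644, 2853 and 2523 in NBRC2018, and 2727, 2703 and 1768 in NBRC1958. It was close to level across strains without acid and differed most at 60 g/L. PRE7 (-0.27) and PUP3 (-0.20) were lower at 60 g/L in every strain. PRE4 had 1583, 1597 and 1647 in KF7, 1700, 1825 and 1654 in NBRC2018, and 1940, 2048 and 1623 in NBRC1958. This was the 1 core gene not lower in all strains, with a log2 difference of -0.08 that turned to 0.012 with the 60 g/L array of NBRC1958 left out.

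The lid genes had a median difference of -0.11, nearer to 0 than that of the core or base ATPase genes, 1 call among 8 genes and 4 of 8 lower in all strains. A difference between the classes was not tested. RPN7, a lid subunit of the horseshoe-shaped scaffold, fell by 0.40 on the log2 scale (adjusted p = 0.021). It had 1199, 1067 and 849 in KF7 at 0, 20 and 60 g/L, 1153, 1265 and 914.2 in NBRC2018, and 1024, 963.2 and 790.6 in NBRC1958, with no overlap between 60 and 0 g/L. RPN6, which links the lid to the core, had 929.2, 822.8 and 775.7 in KF7, 788.2, 877 and 782.9 in NBRC2018, and 788.2, 713.6 and 570.7 in NBRC1958. Its difference of -0.24 (adjusted p = 0.13) rested on KF7 and NBRC1958, as NBRC2018 was nearly level.

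RPN5 (-0.17), RPN11 (-0.12), the deubiquitinating enzyme, and RPN12 (-0.10) had differences below 0, and RPN3 (0.023), RPN9 (0.024) and RPN8 (0.06) had differences near 0. RPN3 had 796.1, 727.7 and 731 in KF7 at 0, 20 and 60 g/L, 763, 840 and 834.4 in NBRC2018, and 769.2, 675 and 803.6 in NBRC1958. No direction was common to the strains, and the sign of RPN3 and of RPN9 turned without the NBRC1958 array at 60 g/L (-0.029 for RPN3 and -0.028 for RPN9). RPN8, the partner of RPN11, lies close to RPT4 on chromosome XV with 1 gene between them in RefSeq's table. The difference was 0.06 for RPN8 and -0.60 for RPT4. PRE4 and RPN12 on chromosome VI also have 1 gene between them, and both had small differences (-0.08 and -0.10).

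RPN14 (YGL004C), the chaperone that guards the ATPase ring during assembly, had 216.8, 141.3 and 151.1 in KF7 at 0, 20 and 60 g/L, 141.3, 146.3 and 110.5 in NBRC2018, and 157.1, 141.3 and 110.3 in NBRC1958. The groups overlapped, with KF7 at 60 g/L above NBRC2018 at 0 g/L. The log2 difference of -0.42 passed narrowly (adjusted p = 0.048), and it no longer passed with median centring, with no filter, with an offset of 64, with only the arrays compared, with no replicate block, or when any array other than the KF7 array at 20 g/L was left out.

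The count at 60 against 0 g/L depended on single arrays. With the 0 g/L array of NBRC1958 left out 1 of the 34 passed, and with that of KF7 left out 2 passed. Leaving out the 60 g/L array of NBRC2018 gave 6, and leaving out either NBRC1958 array with acid gave 7. A further 10 subunit genes had an adjusted p from 0.05 to 0.10, so many calls stood near the threshold on either side.

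**Figure D2:**
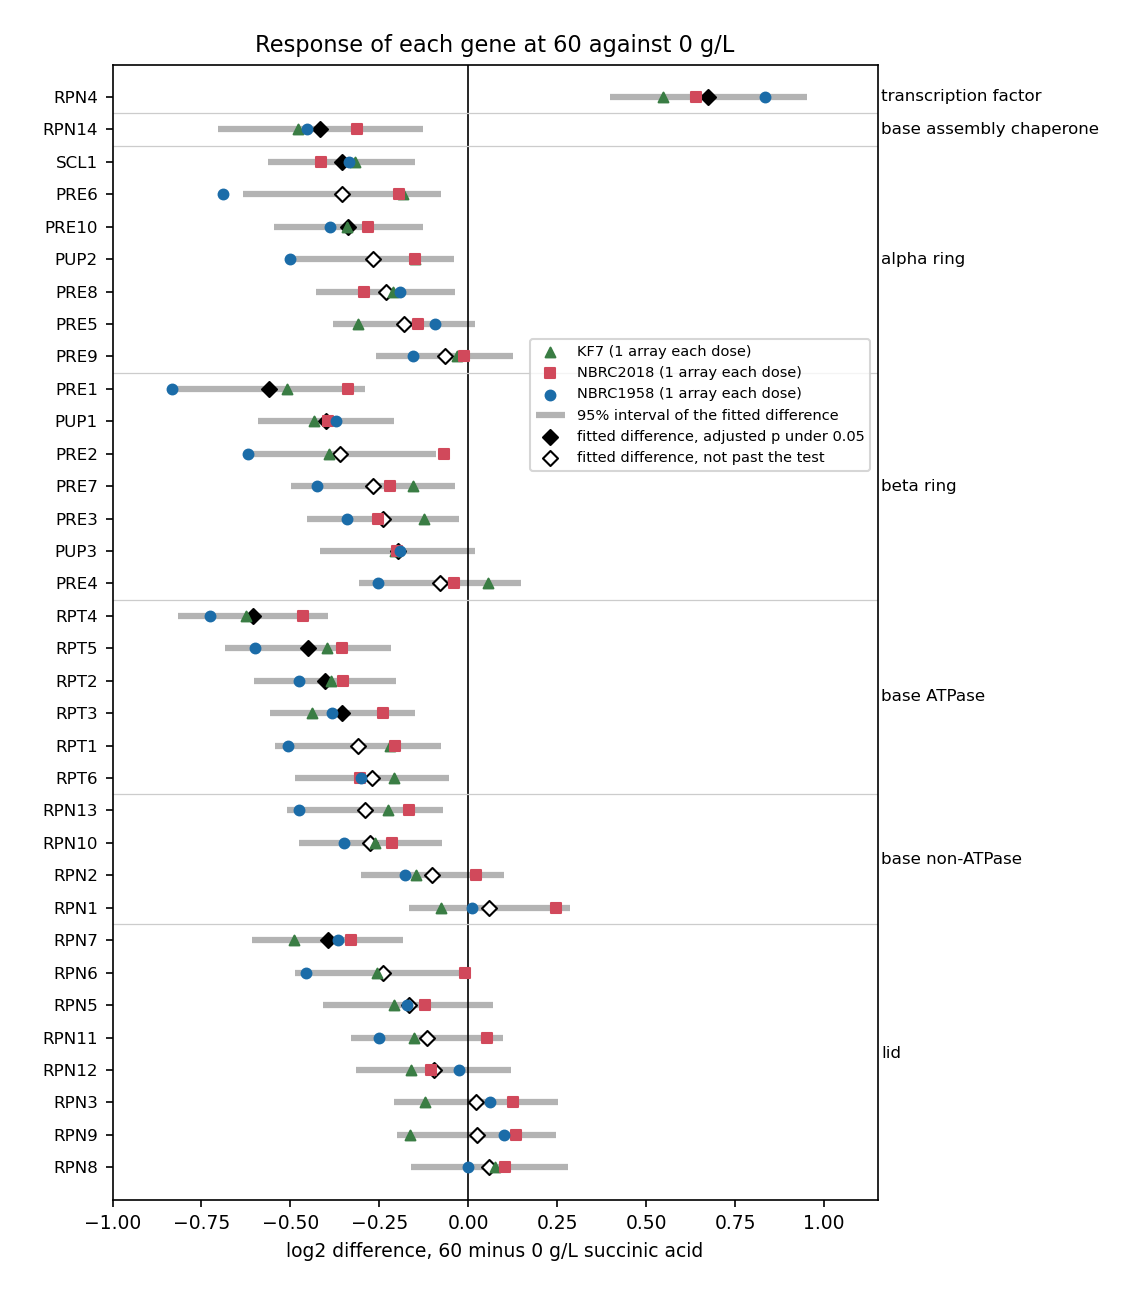
Log2 difference of each of the 34 genes at 60 minus 0 g/L succinic acid, grouped by role. Coloured points are the strains (1 array each dose), diamonds are the limma differences, filled where the adjusted p was under 0.05, and grey bars are their 95% intervals. RPN4 alone lies far to the right, the ATPase and core genes lie left of 0, and the lid genes straddle it.

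At 20 against 0 g/L none of the 34 genes passed the limma test, and none had an unadjusted p under 0.05. Few genes passed at this dose at all: 0.0229% of those tested, or 1 gene, and 158 genes had an unadjusted p under 0.05. Fitted differences over all genes ran from -1.28 to 1.80, and a gene that did not pass may still have changed. RPN4 had a log2 difference of -0.07 (95% interval -0.34 to 0.21) and the subunit genes a median of -0.026. The strains did not move together. In KF7 26 of the 32 subunit genes were below 0 (45.4% of all genes tested), with a median of -0.07. In NBRC1958 22 were below 0 (50.8% of all genes), with a median of -0.05. In NBRC2018 31 of the 32 were above 0 (51% of all genes), with a median of 0.10, from -0.11 for RPN13 to 0.22 for RPT1. These are differences between 2 arrays of a strain, and they have no replicate.

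At 60 against 20 g/L 9 of the 34 genes passed, against 15.9% of all genes tested (5.78% higher and 10.2% lower). This comparison shares the 60 g/L arrays with the one above. RPN4 rose by 0.74 (adjusted p = 0.011), and 8 subunit genes fell. RPT4 (-0.48), RPT5 (-0.43), RPT2 (-0.34), RPT3 (-0.32), PRE1 (-0.50), PUP1 (-0.35), RPN7 (-0.36) and RPN10 (-0.33, adjusted p = 0.042) were the genes that fell. With 1 array left out, RPN10 passed in 0 of 9 fits, and RPN7, RPT2 and RPT3 in 1 each. PUP1 passed in 3, PRE1 in 4, RPT5 in 5, RPT4 in 6 and RPN4 in 8. The median over the 32 subunit genes was -0.24, against -0.06 for all genes tested, and 24 of the 32 were lower at 60 than at 20 g/L in all strains, against 34% of all genes. The count fell to 5 with quantile normalization or median centring. It lay between 0 and 5 without any 1 array other than the NBRC2018 array at 0 g/L, and was lowest, at 0, without the NBRC1958 array at 20 g/L.

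**Figure D3:**
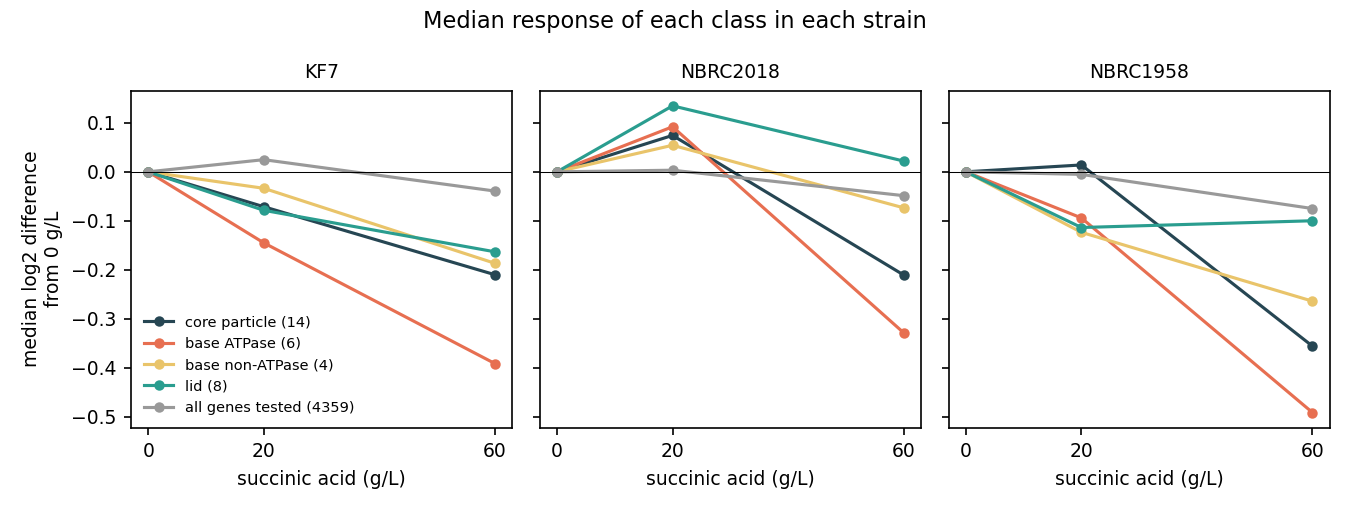
Median log2 difference from the 0 g/L array of the same strain (vertical axis) against succinic acid in g/L for the core, base ATPase, base non-ATPase and lid genes and for all 4359 genes tested, 1 panel per strain. In NBRC2018 the 4 class medians lie above 0 at 20 g/L, and in every strain the ATPase genes are lowest at 60 g/L.

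Whether the strains differed in their response was tested with a line on dose for each strain. No member and no gene passed this limma F test. The smallest adjusted p was 0.34 over all genes and 0.57 among the members, and 421 genes but no member had an unadjusted p under 0.05. PRE6 and PRE2 had the smallest p of the members. The slope of PRE6, as log2 change over 60 g/L, was -0.20 in KF7, -0.23 in NBRC2018 and -0.73 in NBRC1958. For PRE2 the slopes were -0.41, -0.10 and -0.66 in the same order. The median response of the 32 subunit genes at 60 against 0 g/L was -0.21 in KF7, -0.20 in NBRC2018 and -0.35 in NBRC1958, each from 1 array per dose.

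The strains also differed at equal dose, and RPN4 and the subunit genes again stood on opposite sides. In NBRC2018 against NBRC1958 12 of the 34 genes passed, against 27.9% of all genes tested (16.3% higher and 11.5% lower). Of the subunit genes 11 were higher in NBRC2018 and none lower, and RPN4 was lower. They were 6 of the 14 core genes, 4 of the 6 ATPases and RPN10, with no lid gene among them. The median log2 difference of the 32 was 0.25, against 0.06 for all genes tested. Above 0 were 29 of the 32, against 2478 of the 4359 genes tested.

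RPN4 averaged 797 ± 204 in NBRC2018 and 1440 ± 610 in NBRC1958 (SD over the 3 doses), a log2 difference of -0.79 with a standard error of 0.12 (limma adjusted p = 0.0051). PRE1 averaged 1485 ± 228 in NBRC2018 and 973 ± 281 in NBRC1958, a difference of 0.64 (adjusted p = 0.0089). PRE10 averaged 2067 ± 253 in NBRC2018 and 1464 ± 224 in NBRC1958, a difference of 0.50 (0.0088). For PRE10 every NBRC2018 signal was above every NBRC1958 signal, and the same held for PRE9 (0.44), which was not called in any comparison of doses. For PRE1, NBRC2018 at 60 g/L (1230) was still above NBRC1958 at 0 g/L (1171).

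The other genes higher in NBRC2018 were PRE8 and RPT5 (0.41 each), PUP1 (0.40), RPT2 (0.35), RPT4 and RPT1 (0.34 each), RPN10 (0.33) and SCL1 (0.28). With 1 array left out, SCL1 (limma adjusted p = 0.0497) passed in 0 of 9 fits, RPT1 in 1, and RPN10 and RPT5 in 3 each. RPT2 and RPT4 passed in 4 each, and PRE8 and PUP1 in 5 each. RPN4, PRE1, PRE10 and PRE9 passed in all 9. The limma adjusted p of RPN4 was 0.063 without the 0 g/L arrays and 0.12 with no replicate block. The count of 12 fell to between 4 and 7 when any array of NBRC2018 or NBRC1958 was left out.

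**Figure D4:**
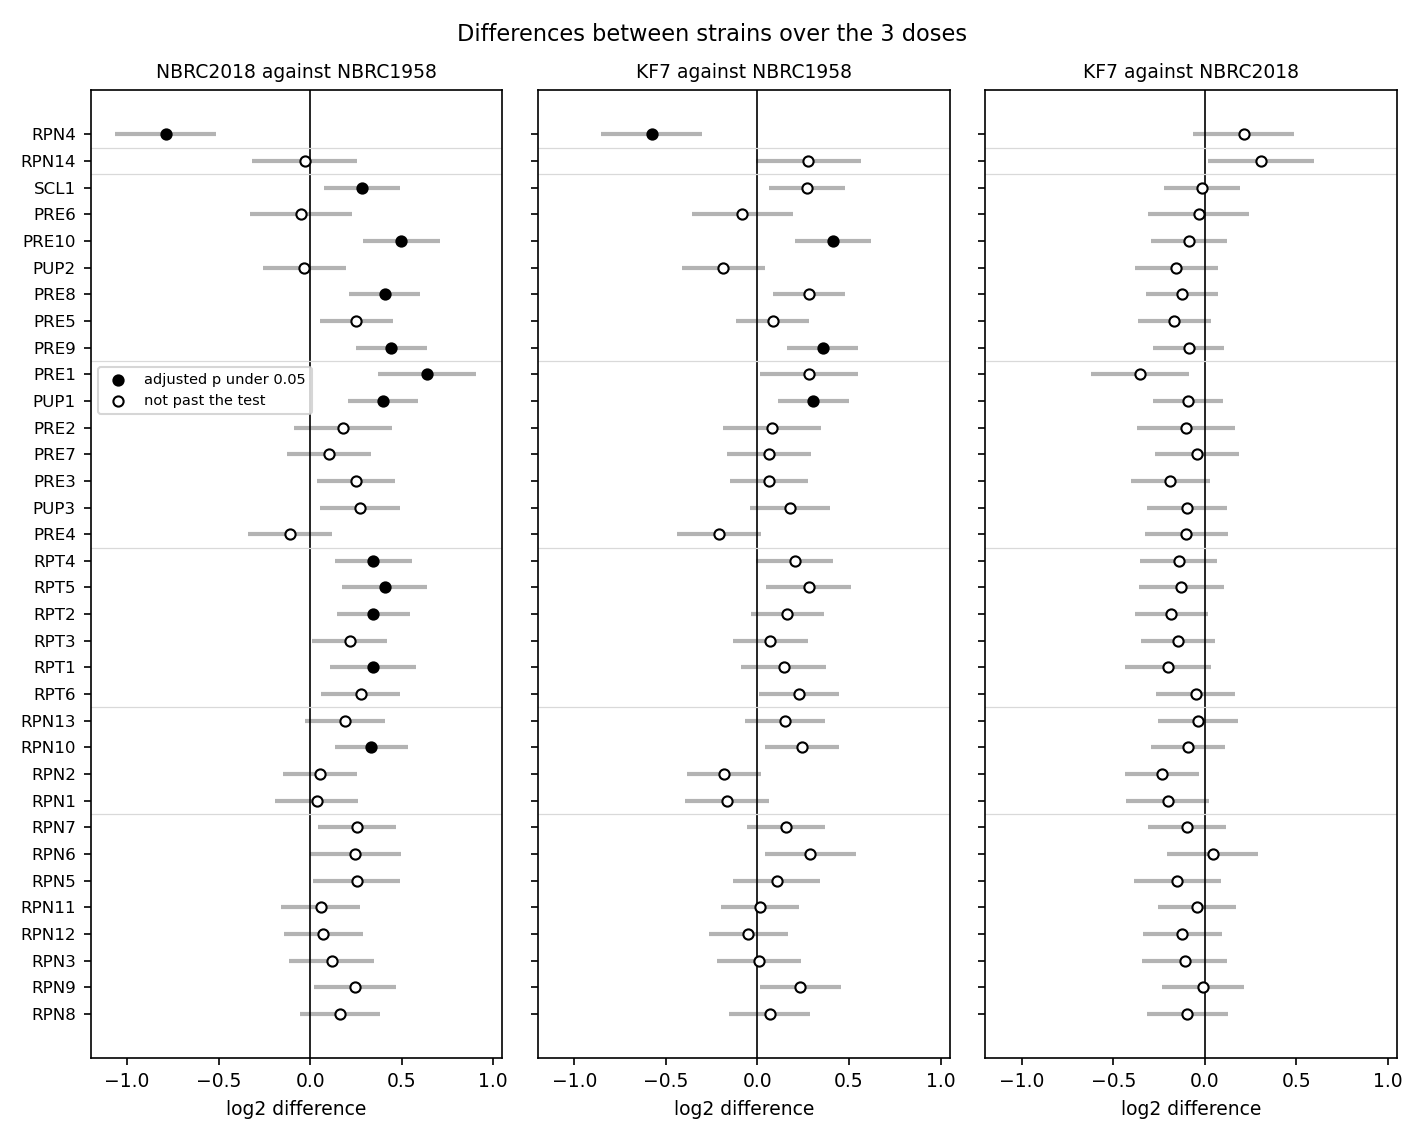
Log2 difference between strains over the 3 doses for each of the 34 genes, 1 panel per pair of strains, with 95% intervals, filled where the limma adjusted p was under 0.05. In both panels against NBRC1958 RPN4 lies left of 0 and most subunit genes right of it, and no gene is filled in KF7 against NBRC2018.

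In KF7 against NBRC1958 4 of the 34 genes passed, against 19.1% of all genes tested (9.45% higher and 9.66% lower). RPN4 averaged 925 ± 228 in KF7 and 1440 ± 610 in NBRC1958 (SD over the doses), a difference of -0.58 (adjusted p = 0.015). PRE10 (0.41, adjusted p = 0.019), PRE9 (0.36, 0.024) and PUP1 (0.31, 0.039) were higher in KF7. They are 9.38% of the subunit genes, near the 9.45% of all genes tested. With 1 array left out, PRE10 passed in 5 of 9 fits, PRE9 in 4 and PUP1 in 0. The subunit median was 0.15, against 0.0021 for all genes tested. No member passed when the 0 g/L array of NBRC1958, the 0 g/L array of KF7 or the 60 g/L array of KF7 was left out, and 1 passed without the NBRC1958 array at 20 g/L.

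In KF7 against NBRC2018 none of the 34 passed by limma, against 16.4% of all genes tested (7.13% higher and 9.29% lower), and 3 had an unadjusted p under 0.05. These were PRE1 (-0.35), RPN2 (-0.24) and RPN14 (0.31). RPN2, the scaffold that holds RPN13, had 1361, 1345 and 1228 in KF7 at 0, 20 and 60 g/L, 1519, 1575 and 1542 in NBRC2018, and 1604, 1454 and 1416 in NBRC1958. Every KF7 signal of RPN2 was below every signal of the other strains. The subunit genes lay slightly lower in KF7, with a median of -0.10 against -0.05 for all genes. Below 0 were 31 of the 32, against 2537 of the 4359 genes tested. RPN4 differed by 0.21 (95% interval -0.06 to 0.49, adjusted p = 0.25). With the 60 g/L array of NBRC1958 or the 20 g/L array of KF7 left out, 1 member passed.

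Set on each gene's own mean over the 9 arrays, RPN4 and the subunit median ordered the strains in opposite ways at every dose. RPN4 was highest in NBRC1958, then KF7, then NBRC2018, while the subunit median was highest in NBRC2018, then KF7, then NBRC1958. At 60 g/L RPN4 stood at 0.26 in KF7, 0.06 in NBRC2018 and 1.10 in NBRC1958 on the log2 scale, and the subunit median at -0.12, -0.03 and -0.35. At 0 g/L RPN4 stood at -0.29, -0.58 and 0.26 in the same strains and the subunit median at 0.12, 0.16 and 0.02. At that dose the lid and base non-ATPase genes did not follow the order of the subunit median. The lid median was 0.074 in KF7, 0.017 in NBRC2018 and 0.015 in NBRC1958. The base non-ATPase median was 0.026, 0.119 and 0.084 in the same strains. Of the 32 subunit genes, 18 had their lowest signal of the 3 strains in NBRC1958 at every dose, against 19.7% of all genes tested. In 13 the highest signal was in NBRC2018 at every dose, against 20.5% of all genes. No member was called between KF7 and NBRC2018, and 3 of the 32 subunit genes (9.38%) were called higher in KF7 than in NBRC1958, near the 9.45% of all genes tested. The order of the subunit median is therefore a description. Of the sum of squares of the subunit genes, 41.3% went with strain and 48.2% with dose, against 51.8% and 34.2% over all genes tested. For RPN4 the shares were 47.6% and 47.9%.

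**Figure D5:**
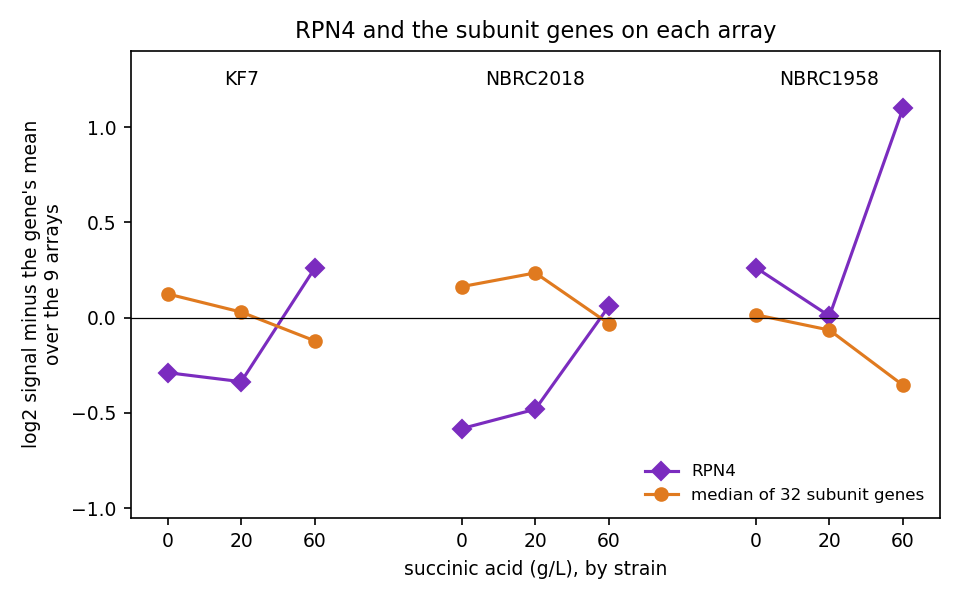
Log2 signal minus the gene's mean over the 9 arrays (vertical axis) for RPN4 and for the median of the 32 subunit genes, by strain and dose in g/L. RPN4 is at its highest and the subunit median at its lowest at 60 g/L in each strain, with the widest gap in NBRC1958 (1.10 and -0.35).

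Other genes of the pathway were taken from 3 lists of textbook members. Of 15 assembly and associated factors, 1 rose and 2 fell at 60 against 0 g/L, a share of 20% near the 22.8% of all genes tested. The list's median was -0.16, against -0.05 for all genes. BLM10, an alternative cap of the core, rose by 0.28 (adjusted p = 0.044). ADD66, a chaperone of the alpha ring, fell by 0.45 (0.012), and HSM3, a chaperone of the base, fell by 0.37 (0.044). BLM10 did not pass when any array was left out, and HSM3 passed in 2 of 9 such fits. SEM1, a small lid subunit whose symbol falls outside the naming rule, had a difference of -0.13 (adjusted p = 0.40).

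Of 21 ubiquitin and shuttle factors, 3 rose and 2 fell, a share of 23.8% near the 22.8% of all genes tested. The median was -0.07, against -0.05 for all genes. The ubiquitin ligases TOM1 (0.51, adjusted p = 0.0071) and UBR1 (0.39, 0.017) rose, as did RAD6 (0.54, 0.048), a ubiquitin-conjugating enzyme known to act with UBR1 and UBR2. TOM1 had 387.6, 396.6 and 531.3 in KF7 at 0, 20 and 60 g/L, 480.6, 498.8 and 712.6 in NBRC2018, and 459.3, 440.5 and 668.6 in NBRC1958. Every 60 g/L signal of TOM1 was above every signal at the other doses, and the call held without any 1 array. SHP1 (-0.39, 0.023), an adaptor of the unfoldase Cdc48, and DSK2 (-0.36, 0.042), a shuttle that carries ubiquitin-tagged proteins to the proteasome, fell. RAD6 and DSK2 each passed in 2 of the 9 fits with 1 array left out.

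Of 6 known regulators of RPN4, 4 were tested and none passed at 60 against 0 g/L. HSF1, YAP1 and PDR1 are transcription factors of the heat shock, oxidative and drug responses that bind the RPN4 promoter, and MUB1 helps UBR2 to mark Rpn4 for degradation. The log2 difference was 0.13 for HSF1, 0.09 for PDR1, -0.21 for MUB1 and -0.0038 for YAP1, which stood at 0.024 with median centring. PDR3 and UBR2 fell below the level filter and were not tested. Between strains PDR1 was lower in KF7 than in NBRC1958 (-0.55, adjusted p = 0.0062), with signals of 160.6, 171 and 186.4 in KF7 at 0, 20 and 60 g/L and 267.5, 250.1 and 262.5 in NBRC1958. HSF1 was lower in KF7 (-0.29, 0.045) and in NBRC2018 (-0.29, 0.033) than in NBRC1958. PDR1 was not called in NBRC2018 against NBRC1958 (-0.25, limma adjusted p = 0.063). Neither YAP1 nor MUB1 was called against NBRC1958. They stood at -0.23 and -0.14 in KF7 and at 0.09 and 0.13 in NBRC2018. Thus 2 of the 4 were called in KF7 and 1 of the 4 in NBRC2018, against 19.1% and 27.9% of all genes tested. The HSF1 call in KF7 passed in 0 of 9 fits with 1 array left out, and that in NBRC2018 in 3 of 9. Their part in the RPN4 differences was not tested.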

How the data were processed

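The 9 arrays are a single-colour design with biotin-labelled cRNA, made per the labels' protocols from RNA extracted with Trizol. The values deposited by the authors are normalized intensity values on a linear scale, with 1 value for each probe set on each array. Details of scanning, summarization and normalization are not given in the sources used here. A probe annotation of 2016 paired 5498 of 10928 probe sets with 1 S. cerevisiae gene each. RefSeq's table for assembly R64 updated 12 symbols. Of 47 genes with several probe sets the one of highest mean was kept, which left 5449 genes.

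Values were analysed as log2 of the intensity plus 16. The 20% of genes with the lowest mean, 1090 genes below a signal of 118.3, were left out. The remaining 4359 genes were fitted in R 4.3.3 with lmFit and eBayes of limma 3.58.1, using strain and dose as additive factors and 4 residual degrees of freedom. Slopes on dose by strain were compared with a moderated F test on 3 residual degrees of freedom. Adjustment followed Benjamini and Hochberg over all genes tested, and the threshold was 0.05. The procedure was tested on simulated data. The number of arrays limits the precision.

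Strain pairs the arrays of different doses, per the labels, so it is the block of the dose comparisons, and dose is that for the strain comparisons. Deviations from the dose means correlated between arrays of the same strain at 0.591 to 0.875 over the 4359 genes. The members, gene lists and tests were chosen with earlier results of these data known. Signals on every array are given for RPN4, RPN14, the 2 genes of smallest p and the 1 of largest p in each class at 60 against 0 g/L, and the 2 of smallest p in each strain comparison and in the slope test. From each list of other pathway genes up to 5 genes past the test at 60 against 0 g/L are named, and all 6 regulators of RPN4. The signals of TOM1 and PDR1, the strain differences of the tested regulators of RPN4, and the value of SEM1 were added after their values were seen. Alternatives were quantile normalization, median centring, no filter, a filter of the lowest 50% of genes, a robust eBayes, an eBayes with an intensity trend, averaged probe sets, offsets of 1 and 64, only the arrays compared, no replicate block, and dose as a rank for the slopes. Each array, each strain and each dose was also left out in turn. Promoter and protein sequences were not used here.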

Additional observations from a re-analysis of the deposited data

How the results depend on the processing

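The counts at 20 against 0 g/L and for the slopes were 0 under every alternative run. Fitting only the arrays compared gave 2 genes at 60 against 0 g/L, 2 at 60 against 20 g/L and 1 in KF7 against NBRC1958. A fit with no replicate block gave 0, 0 and 0 in these comparisons and 1 in NBRC2018 against NBRC1958, where it called 12 with the block, and RPN4 at 60 against 0 g/L kept its difference of 0.67 with an adjusted p of 0.25. Quantile normalization and median centring each gave 5 at 60 against 20 g/L, and moved the core median at 60 against 0 g/L to -0.22 and -0.24. Leaving out an array, a strain or a dose gave 0 to 11 genes at 60 against 0 g/L (0 without NBRC1958, 3 without NBRC2018, 2 without KF7), 0 to 8 at 60 against 20 g/L, 0 to 3 in KF7 against NBRC1958, 0 to 1 in KF7 against NBRC2018 and 1 to 11 in NBRC2018 against NBRC1958. The RPN4 difference at 60 against 0 g/L then ran from 0.55 to 0.74, and its adjusted p was 0.055 without NBRC1958. The cause was not tested. Differences near 0 at 60 against 0 g/L changed sign. YAP1 stood at 0.024 with median centring. With arrays or strains left out it ran from -0.109 to 0.079, PRE4 from -0.160 to 0.012, RPN1 from -0.035 to 0.127, RPN3 from -0.052 to 0.094 and RPN9 from -0.032 to 0.118. Of the single-gene values, 839 kept their direction and side of the threshold, 168 kept only their direction, 3 passed newly and 19 changed sign. Each of the 168 belongs to a gene called above that lost its call. The 839 also count genes that passed neither above nor under the alternative, so they do not measure how firmly the calls held.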
